A study of Mus musculus with 6 samples.

Results

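The genes described here are 48 mouse genes of the presynaptic vesicle release machinery, taken by symbol from a fixed list out of 55604 genes in the deposited count tables. All 48 were found, each as 1 Ensembl gene, and all 48 passed the filter on low counts that left 11388 genes. They were sorted by role into 9 SNARE core genes, 9 calcium sensor genes, 13 vesicle protein genes, 11 active zone genes and 6 endocytosis genes. The study set brain RNA of C57BL/6 mice that had received 4-aminopyridine (4-AP) by intraperitoneal injection against brain RNA of untreated mice of that strain, with 3 libraries per group. 4-AP blocks voltage-gated potassium channels, and the injection served as a model of status epilepticus, a prolonged seizure. RNase R, an exonuclease that digests linear RNA, was applied before library construction in both groups. The controls were untreated rather than sham-injected, and the labels name no brain region, age, sex or interval between injection and sampling.

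A presynaptic terminal releases transmitter when calcium entry makes docked synaptic vesicles fuse with the plasma membrane. The SNARE proteins on vesicle and plasma membrane zip together to drive fusion. Several synaptotagmins and Doc2 proteins sense calcium, and large scaffolds of the active zone hold vesicles and calcium channels at the release site. Vesicle membrane is then retrieved by endocytosis and refilled, and 4-AP is known to increase release by broadening the presynaptic action potential.

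Total counts ranged from 1507882 to 2721287 with 4-AP and from 2355610 to 3409055 without it. The members held between 0.959% and 1.13% of all counts in the 4-AP libraries and between 1.25% and 1.52% in the controls, and single members had from 22 to 3863 counts in a library. The most abundant gene, Lars2, took between 12.4% and 21.4% of counts in the 4-AP libraries and 3.82%, 4.21% and 12.1% in control replicates 1, 2 and 3. Over all counts, Lars2 included, control replicate 3 stood apart from its group. Its chi-square per degree of freedom was 22.8, 8.62 and 9.55 against 4-AP replicates 1, 2 and 3. Against control replicates 1 and 2 it was 26.4 and 24.9. Within the 4-AP group, replicates 1 and 2 also differed, at 23.4. This statistic grows with the number of counts, so its values for different pairs are not on 1 scale. In the members' median log2 deviation from gene means control replicate 3 lay with its group, at 0.11 beside 0.12 and 0.13 for the other controls. Without control replicate 3 the members' median log2 fold change was -0.29 and 0 members were called. The same number was called without 4-AP replicate 2 or 4-AP replicate 3. Neuronal, astrocyte and oligodendrocyte markers were present in every library, as the label brain requires. Marker lists differed between the groups. Of 13 glutamatergic neuron markers 3 fell (Slc17a7, Nrgn and Neurod2), their median log2 fold change was -0.77, and their summed level was 1597 to 2229 CPM (counts per 1e+06 of the scaled library) in 4-AP against 2768 to 2944 in control libraries. Of 14 hypothalamic and subcortical markers 10 were tested and 3 rose (Oxt, Avp and Trh), with summed levels of 179 to 319 CPM in 4-AP libraries and 196, 50.1 and 48.6 CPM in control replicates 1, 2 and 3. The 10 tested markers had a median log2 fold change of 1.16, and 1 of them (Pomc, at -0.60) was below 0. Oxt, the oxytocin gene, had 8, 17 and 11 counts in the 4-AP libraries and 0 counts in all 3 controls. In control replicates 1, 2 and 3, Avp had 0, 3 and 0 counts and Trh had 3, 10 and 1. Oxt, Avp and Trh thus passed the filter on low counts only through the 4-AP group. Tcf7l2, a thalamic marker of that list, had 39, 1 and 0 counts in control replicates 1, 2 and 3 and 3, 9 and 10 in the 4-AP libraries, too few to be tested. The 9 tested GABAergic markers had a median of -0.048 and the 12 pan-neuronal markers one of -0.14, with none called. Of the glial lists, Slc1a2 was the 1 called gene (lower) among 9 astrocyte markers (median 0.073), and none was called among 7 oligodendrocyte (0.045), 8 tested microglia (0.15) or 7 endothelial and mural markers (-0.13).

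The 48 listed presynaptic genes were on balance slightly lower in 4-AP brain, and 1 of them, the active zone scaffold gene Pclo, passed the test. The 87 other tested presynaptic genes, described below, had a median log2 fold change of -0.05, with 54 below 0 and 33 above. Both lists were chosen with earlier results of these data known. By edgeR's quasi-likelihood test with adjustment over all genes, 0 members rose and 1 fell. Of all tested genes 0.334% were called higher, 0.509% lower and 0.843% in either direction. Of the 48 members 39 had a log2 fold change below 0, as 51.0% of all tested genes did. Their median log2 fold change was -0.26, and that of all tested genes was -0.008. All 3 4-AP libraries lay below all 3 controls in 16 members, as they did for 10.4% of all tested genes, and above them in 3 members (Syn2, Rab3c and Erc2), as for 8.36% of all tested genes. Before adjustment, 16 members were lower and 4 higher at p under 0.05, where 7.57% and 6.29% of all tested genes were. With DESeq2, which gave an adjusted p for 43 members, 7 were called lower and 0 higher (Bsn, Dnm1, Pclo, Rph3a, Sh3gl2, Syn1 and Unc13a), where 2.44% and 1.48% of the 5277 genes with an adjusted p were. With limma-voom Pclo alone was called lower and 0 members higher, where 0.351% and 0.272% of all tested genes were. The spread among members ran from -0.71 for Sh3gl2 to 0.57 for Sv2c. In 35 of the 48 members, leaving out some single library moved the log2 fold change by over 1.5 times or turned its sign. The 13 others were Pclo, Bsn, Rims4, Unc13a, Ppfia3, Stx1a, Syt7, Rph3a, Syn1, Syngr1, Syp, Sh3gl2 and Dnm1. The summed level of the 48 genes was 11880, 10951 and 10574 CPM in 4-AP replicates 1, 2 and 3. It was 13497, 13329 and 13099 CPM in control replicates 1, 2 and 3. No 4-AP library reached the lowest control in this sum. In bulk RNA, fewer cells of a type and less RNA per cell cannot be told apart, and because the counter adds circular and linear reads of a gene, neither can a change in either form. The glutamatergic markers moved in the same direction, and their part in the members' values was not tested.

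**Figure D1:**
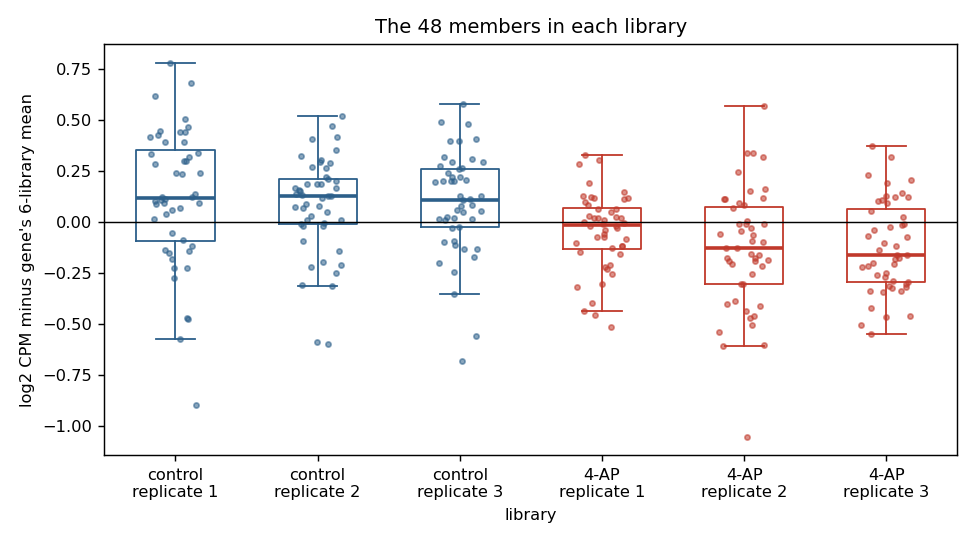
Each point is 1 of the 48 members, plotted as its log2 CPM in a library minus its mean over the 6 libraries, with boxes for the quartiles and medians. The medians are 0.12, 0.13 and 0.11 in control replicates 1, 2 and 3 and -0.012, -0.13 and -0.16 in 4-AP replicates 1, 2 and 3.

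**Figure D2:**
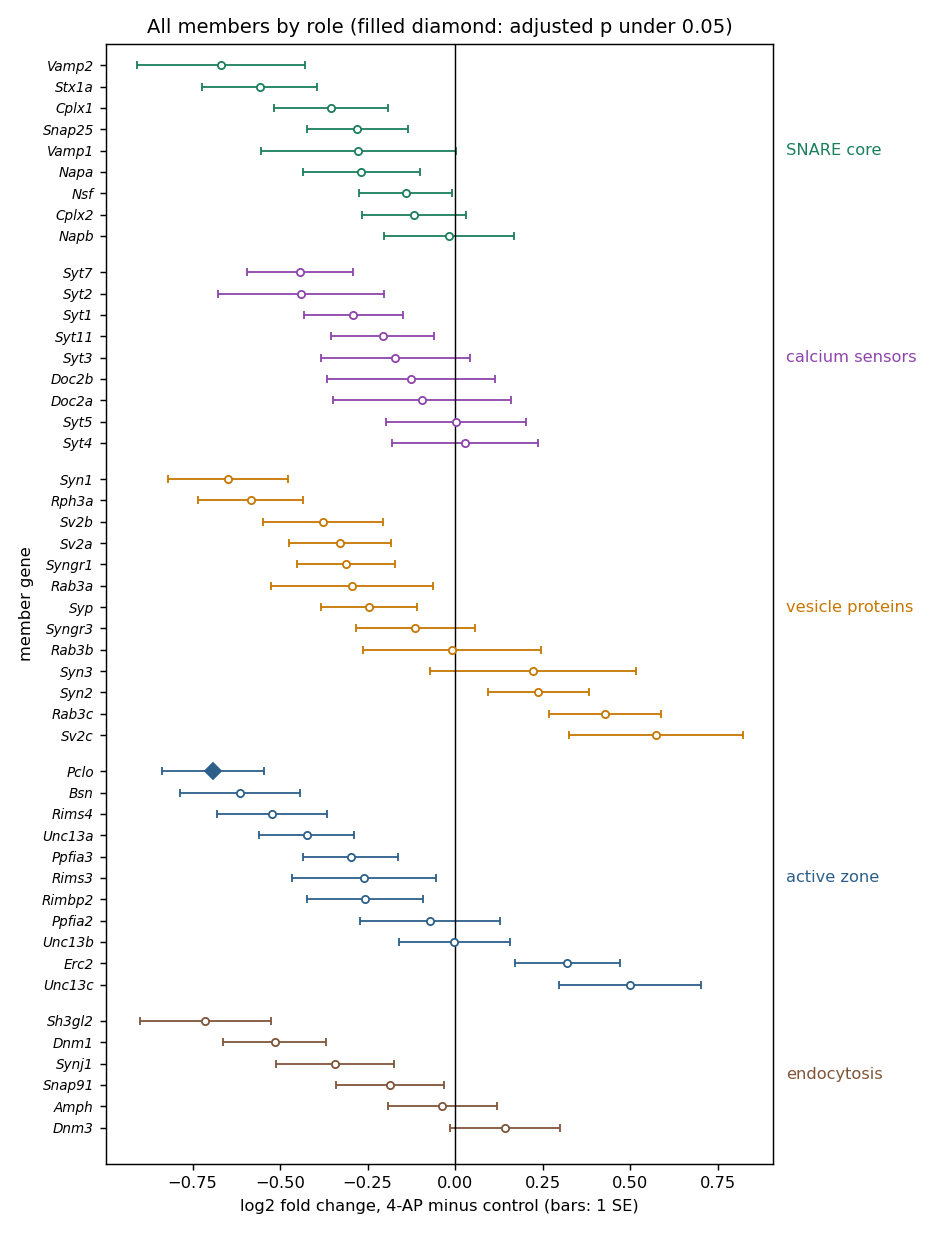
Log2 fold change (4-AP minus control) of all 48 members by role, with bars of 1 SE from edgeR's test. Pclo is the 1 filled symbol, and values run from -0.71 (Sh3gl2) to 0.57 (Sv2c).

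The 11 active zone genes had a median of -0.26, with 9 below 0. At an unadjusted p under 0.05 by edgeR were 7 of them, of which Unc13c and Erc2 were higher and the others lower. The shares over all tested genes were 7.57% lower and 6.29% higher. After adjustment, Pclo alone of this list fell. Pclo encodes piccolo, a giant scaffold protein of the presynaptic active zone, and lies on chromosome 5 (14514918 to 14863459, plus strand, mm10). It had 136, 126 and 134 CPM in 4-AP replicates 1, 2 and 3 and 228, 190 and 220 CPM in control replicates 1, 2 and 3. The highest 4-AP library was well below the lowest control. The means were 132 ± 5.22 and 213 ± 19.7 CPM (SD, n = 3 each). This is 38.1% less, or -0.69 on the log2 scale (SE 0.15, edgeR adjusted p = 0.0239). The size of the fall varied little when libraries were left out, from -0.63 to -0.75, but the call did not hold without 4-AP replicate 1, 4-AP replicate 2, 4-AP replicate 3 or control replicate 3 (adjusted p = 0.0778, 0.0589, 0.117 and 0.118 by edgeR's test). It held without control replicate 1 or control replicate 2 (adjusted p = 0.0484 and 0.0482 by edgeR's test). Bsn encodes bassoon, the scaffold most closely related to piccolo. Bsn had 707, 465 and 490 CPM in the 4-AP libraries against 855, 681 and 1009 CPM in control ones. Here the groups overlapped, since 4-AP replicate 1 was above control replicate 2. Its log2 fold change of -0.61 (SE 0.17, edgeR adjusted p = 0.0903) did not pass.

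The promoters of both scaffold genes are shown because Pclo carries the 1 called change and Bsn is its closest relative, whose value was nearly as low. They are RefSeq windows on GRCm38.p6, the assembly also called mm10, from 250 bases before to 50 after the annotated start. The window of Pclo is chr5:14514668-14514967 on the plus strand and that of Bsn is chr9:108190334-108190633 on the minus strand. Capitals mark matches on either strand to the GC box GGGCGG, the cyclic AMP response element TGACGTCA, the AP-1 motif TGANTCA, the EGR motif GCGNGGGCG, the NRF1 core CGCATGCG, the TATA motif TATAAA or the CCAAT motif, and matches that touch or overlap form 1 run.
Pclo promoter: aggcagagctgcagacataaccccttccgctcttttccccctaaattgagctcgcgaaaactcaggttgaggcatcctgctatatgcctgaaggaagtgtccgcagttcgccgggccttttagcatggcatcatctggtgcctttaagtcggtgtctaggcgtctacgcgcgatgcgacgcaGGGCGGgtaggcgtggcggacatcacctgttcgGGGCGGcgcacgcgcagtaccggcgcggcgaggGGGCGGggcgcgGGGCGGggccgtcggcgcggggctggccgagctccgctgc
Bsn promoter: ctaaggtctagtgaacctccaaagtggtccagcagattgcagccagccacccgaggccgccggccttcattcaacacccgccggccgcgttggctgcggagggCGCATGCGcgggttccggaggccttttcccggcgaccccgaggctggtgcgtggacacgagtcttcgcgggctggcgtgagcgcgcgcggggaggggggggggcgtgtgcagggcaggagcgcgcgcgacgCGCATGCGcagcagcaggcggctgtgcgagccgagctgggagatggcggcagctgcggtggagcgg
The Pclo window holds 4 GC boxes and no other of these motifs, and the Bsn window holds the NRF1 core 2 times and no GC box. The NRF1 core was present in 1.87% and the GC box in 35.7% of 32851 promoter windows of all genes. These matches are letters in a window and do not show binding.

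The remaining active zone genes split. Unc13a, the main vesicle priming factor of forebrain synapses, was at -0.42 (SE 0.14, edgeR adjusted p = 0.137), with 511, 423 and 420 CPM in 4-AP and 613, 599 and 602 CPM in control libraries, so that the groups did not overlap. Rims4, a short RIM family member, was at -0.52 (adjusted p = 0.112) and Ppfia3, a liprin-alpha that organizes active zones, at -0.30, both also without overlap. Rims3, another short RIM, was at -0.26, but at 0.047 without control replicate 1, where it had 431 CPM beside 236 and 275 CPM in control replicates 2 and 3. Rimbp2, which links RIM proteins to calcium channels, was at -0.26 (-0.09 without 4-AP replicate 2), Ppfia2 at -0.07 and Unc13b, a second priming factor, at -0.002. Above 0 were Unc13c and Erc2. Unc13c, a priming factor best known from the cerebellum, had 116, 117 and 101 CPM in 4-AP and 66.3, 60.9 and 112 CPM in control libraries, so that control replicate 3 lay among the 4-AP values. Its log2 fold change was 0.50 (SE 0.20, edgeR adjusted p = 0.257), and it was 0.81 without control replicate 3. Erc2, an ELKS family scaffold, had 597, 506 and 526 CPM in 4-AP and 348, 453 and 503 CPM in control libraries, a gap of a few CPM between the groups, and was at 0.32 (SE 0.15, edgeR adjusted p = 0.344), or at 0.19 without control replicate 1. The adjusted p-values of these genes are from the same edgeR test.

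**Figure D3:**
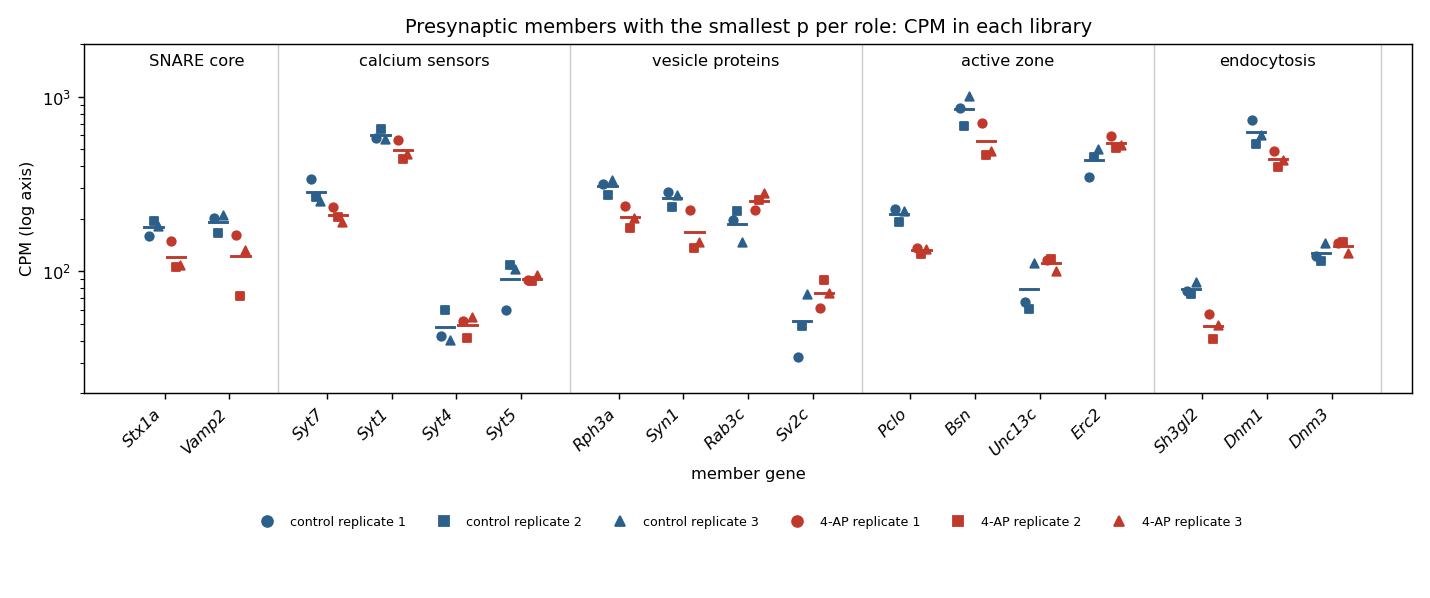
CPM (log axis) of the members with the smallest p in each direction, up to 2 per role, in each of the 6 libraries, with the group mean as a line. Pclo separates the groups most tightly, at 126 to 136 CPM in 4-AP against 190 to 228 in control libraries, and Syt4 and Syt5 overlap.

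The 9 SNARE core genes were all below 0, with a median of -0.28 and none called by edgeR. At an unadjusted p under 0.05 by edgeR 3 were lower, and the share over all tested genes was 7.57%. Stx1a encodes syntaxin 1A, a SNARE of the plasma membrane. It had 149, 106 and 109 CPM in 4-AP and 159, 193 and 182 CPM in control libraries. The groups did not overlap, although 4-AP replicate 1 came close to control replicate 1. Its log2 fold change was -0.56 (SE 0.16, edgeR adjusted p = 0.103). Vamp2 encodes synaptobrevin 2, the vesicle SNARE of most forebrain synapses. It had 162, 71.8 and 133 CPM in 4-AP and 202, 166 and 209 CPM in control libraries, and 4-AP replicate 2 was the low one. Vamp2 was at -0.67 (SE 0.24, edgeR adjusted p = 0.216), and at -0.35 without 4-AP replicate 2. Snap25, the other plasma membrane SNARE, had 726, 683 and 585 CPM in 4-AP and 737, 931 and 754 CPM in control libraries, without overlap, and was at -0.28, or at -0.15 without control replicate 2. Cplx1, a complexin that binds the assembled SNARE complex, was at -0.35 (-0.19 without 4-AP replicate 2), and its relative Cplx2 at -0.12. The ATPase gene Nsf, whose product takes used SNARE complexes apart, was at -0.14, and the genes of its adaptors, Napa and Napb, were at -0.27 (-0.12 without 4-AP replicate 2) and -0.02. Vamp1, the synaptobrevin most abundant in brainstem and spinal cord, was at -0.28, and at 0.07 without control replicate 1, which had 131 CPM beside 54.5 and 95.5 CPM in control replicates 2 and 3.

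The 9 genes listed as calcium sensors had a median of -0.17 and none was called by edgeR. At an unadjusted p under 0.05 by edgeR 1 (Syt7) was lower, and the share over all tested genes was 7.57%. Syt7, a sensor linked to asynchronous release and facilitation, had 235, 205 and 192 CPM in 4-AP and 338, 267 and 253 CPM in control libraries. These values did not overlap, and the log2 fold change was -0.44 (SE 0.15, edgeR adjusted p = 0.162). Syt1, the fast sensor of most forebrain synapses, had 566, 439 and 469 CPM in 4-AP and 576, 654 and 571 CPM in control libraries. The highest 4-AP library stood just under the lowest control, and Syt1 was at -0.29 (SE 0.14, edgeR adjusted p = 0.366), or at -0.19 without 4-AP replicate 2. Syt2, the fast sensor of many hindbrain and inhibitory synapses, was at -0.44. Without control replicate 1, which had 94.6 CPM beside 47.98 and 55.3 in control replicates 2 and 3, it was at -0.07. Syt4 and Syt5 were the 2 genes of this list above 0. Syt4, a synaptotagmin of secretory granules that is induced by activity in some neurons, had 52.2, 41.5 and 54.8 CPM in 4-AP and 42.4, 60.2 and 40.6 CPM in control libraries, with overlap and a log2 fold change of 0.03 (SE 0.21). Syt5 had 89.3, 87.5 and 95.8 CPM in 4-AP and 60.0, 109 and 103 CPM in control libraries, also with overlap, and was at 0.002 (SE 0.20). Syt11 was at -0.21, Syt3 at -0.17, and the genes of the high-affinity sensors Doc2a and Doc2b at -0.09 and -0.13. Vamp1, Syt2 and Rims3 all stood high in control replicate 1, the control with the highest sum of subcortical markers. They were picked after their values were seen. Sv2a, Syt7 and Dnm1 were also highest of the controls in that library. Sv2c was lowest there, at 32.4 CPM beside 48.5 and 74.1 CPM in control replicates 2 and 3. The part of subcortical markers in these values was not tested. Doc2a shares 39.4% of its exonic bases with Ino80e on the opposite strand, and Ppfia2 shares 24.5% with antisense neighbours. Syp, Syt4 and Syn3 share 16.8%, 14.5% and 14.1% with genes on the opposite strand, and the other members share less. Without a stated strand setting the reads of such partners cannot be told apart, so the counts of the genes named here are uncertain.

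The 13 vesicle protein genes held the widest spread, from -0.65 for Syn1 to 0.57 for Sv2c, with a median of -0.25 and none called by edgeR. At an unadjusted p under 0.05 by edgeR were 7 genes. Syn1, Rph3a, Sv2a, Sv2b and Syngr1 were lower, and Sv2c and Rab3c higher. The shares over all tested genes were 7.57% lower and 6.29% higher. Rph3a encodes rabphilin, an effector of Rab3. It had 237, 176 and 202 CPM in 4-AP and 315, 274 and 332 CPM in control libraries, without overlap, and was at -0.58 (SE 0.15, edgeR adjusted p = 0.061). Syn1 encodes synapsin I, a phosphoprotein that tethers vesicles in the reserve pool. It had 223, 137 and 147 CPM in 4-AP and 283, 234 and 274 CPM in control libraries. The groups did not overlap, and 4-AP replicate 1 was the one near the controls. Syn1 was at -0.65 (SE 0.17, edgeR adjusted p = 0.0707) and passed without 4-AP replicate 1 (-0.90; edgeR adjusted p = 0.0259). Rab3c, a small GTPase of the Rab3 family, went the other way, with 224, 256 and 279 CPM in 4-AP and 195, 220 and 146 CPM in control libraries. These groups did not overlap either, and Rab3c was at 0.43 (SE 0.16, edgeR adjusted p = 0.208), or at 0.28 without control replicate 3. Sv2c, the SV2 glycoprotein of basal ganglia and other subcortical nuclei, had 61.3, 89.7 and 75.3 CPM in 4-AP and 32.4, 48.5 and 74.1 CPM in control libraries. Control replicate 3 lay inside the 4-AP range, and Sv2c was at 0.57 (SE 0.25, edgeR adjusted p = 0.309), between 0.34 without control replicate 1 and 0.90 without control replicate 3.

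The promoters of Syn1 and Rab3c are shown as the vesicle protein genes with the lowest value and, of those above 0, the smallest p. The window of Syn1 is chrX:20920869-20921168 and that of Rab3c is chr13:110280157-110280456, both on the minus strand, with capitals as above.
Syn1 promoter: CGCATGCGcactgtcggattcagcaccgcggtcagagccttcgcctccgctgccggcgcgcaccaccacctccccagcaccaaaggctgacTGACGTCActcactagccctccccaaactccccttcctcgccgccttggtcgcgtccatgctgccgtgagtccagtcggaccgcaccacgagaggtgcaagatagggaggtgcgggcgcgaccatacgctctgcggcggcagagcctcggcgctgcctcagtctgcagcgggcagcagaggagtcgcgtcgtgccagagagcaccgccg
Rab3c promoter: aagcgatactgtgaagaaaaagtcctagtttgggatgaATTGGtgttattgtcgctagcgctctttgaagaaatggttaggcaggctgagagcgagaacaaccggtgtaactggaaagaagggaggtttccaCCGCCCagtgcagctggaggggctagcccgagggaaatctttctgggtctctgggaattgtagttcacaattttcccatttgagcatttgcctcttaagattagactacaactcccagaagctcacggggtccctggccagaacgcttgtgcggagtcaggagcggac
The Syn1 window holds 1 NRF1 core and 1 cyclic AMP response element, a motif found in 1.79% of all promoter windows. The 38 members with a window have 48 windows, and 3 of these (6.25%), of Napa, Sh3gl2 and Syn1, hold that element. The Rab3c window holds 1 GC box and 1 CCAAT motif. Its GC content is 50.7%, against 68.3% for Syn1, 66.0% for Pclo and 72.3% for Bsn.

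Of the other vesicle protein genes, Sv2a, whose product binds the antiseizure drug levetiracetam, had 311, 356 and 378 CPM in 4-AP and 510, 383 and 419 CPM in control libraries. The groups were narrowly apart, and Sv2a was at -0.33 (SE 0.15, edgeR adjusted p = 0.315), or at -0.19 without control replicate 1. Sv2b was at -0.38 (-0.18 without control replicate 2), the vesicle tetraspan genes Syngr1, Syp and Syngr3 at -0.31, -0.25 and -0.11, and the GTPase genes Rab3a and Rab3b at -0.29 (-0.08 without control replicate 2) and -0.01. Syngr1 had the highest level per length of all members, at 212 ± 20.4 CPM per kilobase of exon in control and 171 ± 15.1 in 4-AP libraries (SD, n = 3 each). Its lowest control, 193, was above the highest of Cplx2, 167, which followed at 153 ± 24.1 CPM per kilobase. Cplx1 came next at 129 ± 20.1 CPM per kilobase in control libraries, then Dnm1 and Snap25, both at 119, and the values of these 4 genes overlapped. Pclo ranked 37 of 48 on this scale and Syn3 last, at 1.26 CPM per kilobase. These levels are of RNase R-treated RNA, over all annotated exons of a gene, and do not rank the genes' RNA in untreated brain. Syn2 was at 0.24 and Syn3 at 0.22. Syn2 had 262, 321 and 256 CPM in 4-AP and 234, 256 and 224 CPM in control libraries, and the lowest 4-AP value was above the highest control only narrowly (255.8 against 255.7 CPM).

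Among the 6 endocytosis genes, with a median of -0.27, none was called by edgeR. At an unadjusted p under 0.05 by edgeR 2 (Sh3gl2 and Dnm1) were lower, and the share over all tested genes was 7.57%. Sh3gl2 encodes endophilin A1, which curves membrane and recruits dynamin and synaptojanin. It had the lowest fold change of all members, with 56.7, 40.7 and 49.0 CPM in 4-AP and 77.3, 74.4 and 86.6 CPM in control libraries. The groups were clearly apart, and the log2 fold change was -0.71 (SE 0.19, edgeR adjusted p = 0.0645). Dnm1 encodes dynamin 1, the GTPase that pinches vesicles off. It had 485, 393 and 435 CPM in 4-AP and 738, 538 and 599 CPM in control libraries, again without overlap, and was at -0.52 (SE 0.15, edgeR adjusted p = 0.0937). Synj1, the lipid phosphatase that uncoats vesicles, was at -0.34 without overlap (-0.22 without 4-AP replicate 3), the clathrin adaptor gene Snap91 at -0.19 and Amph, which encodes amphiphysin, at -0.04. Dnm3, a dynamin also found on the postsynaptic side, had 145, 148 and 127 CPM in 4-AP and 123, 114 and 145 CPM in control libraries, with overlap, and was at 0.14 (SE 0.16).

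The promoter of Sh3gl2, chr4:85205206-85205505 on the plus strand, is shown because this gene had the lowest fold change and its window holds matches to 2 of the less frequent motifs.
Sh3gl2 promoter: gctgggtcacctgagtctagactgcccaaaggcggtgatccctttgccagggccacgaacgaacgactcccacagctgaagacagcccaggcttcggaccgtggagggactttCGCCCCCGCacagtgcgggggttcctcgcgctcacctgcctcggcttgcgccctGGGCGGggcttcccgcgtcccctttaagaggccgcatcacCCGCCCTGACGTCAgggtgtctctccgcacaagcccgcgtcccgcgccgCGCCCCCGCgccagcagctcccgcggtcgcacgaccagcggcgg
It holds 1 cyclic AMP response element next to a GC box, 2 GC boxes in all, and 2 EGR motifs. An EGR motif was present in 5.55% of all promoter windows and in 8 of the 48 windows of the 38 members, which may hold several starts of a gene. The members' windows are richer in GC than all windows, with a median of 62.2% against 52.7% and 18.5 against 7 CpG dinucleotides, and a GC box was present in 62.5% of them. AP-1, TATA and CCAAT motifs were in 6.25%, 6.25% and 29.2% of the members' windows, against 7.81%, 13.6% and 37.4% of all windows. Pclo has neither a cyclic AMP response element nor an EGR motif in its window.

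Members of 1 family can be set against each other within a library, which removes the scaling between libraries. In 18 pairs fixed by family, the log2 ratio of counts was compared between groups with a two-sided exact permutation test. With 3 against 3 libraries this exact test cannot go below p = 0.1, so no pair could pass. The order of the genes in a pair followed no set rule, so a direction shared by pairs is not a result. In 7 pairs (38.9%) the groups did not overlap, with the first-named gene relatively higher in 4-AP, and each had p = 0.1, adjusted p = 0.257 over the 18 pairs by this exact test. These pairs were Syn3/Syn1, Unc13c/Unc13a, Sv2c/Sv2a, Syn2/Syn1, Rab3c/Rab3a, Dnm3/Dnm1 and Unc13b/Unc13a. They share genes, since Syn1 and Unc13a are each the denominator of 2 of them, and the Syn3 count is uncertain as given above. The share of non-overlapping pairs among other genes was not computed, so the count of 7 is a description only. The ratio of Syn2 to Syn1 was 0.23, 1.23 and 0.80 on the log2 scale in the 4-AP libraries against -0.27, 0.13 and -0.30 in control ones, so that Syn2 counts exceeded Syn1 counts in all 4-AP libraries and in control replicate 2. The ratio of Dnm3 to Dnm1 was -1.74, -1.41 and -1.77 in the 4-AP and -2.59, -2.24 and -2.04 in the control libraries. The ratio of Rab3c to Rab3a was 3.20, 3.25 and 3.60 against 2.78, 2.56 and 2.57. By contrast, the ratio of Pclo to Bsn was -2.38, -1.89 and -1.87 against -1.91, -1.84 and -2.20 (difference -0.06; p = 0.7 by the exact permutation test), and that of Syt2 to Syt1 differed by -0.10 (p = 0.9 by the same exact test). Vamp1 against Vamp2 differed by 0.52, with SDs of 0.81 and 0.49 within the groups, so that this difference was inside the spread (p = 0.4 by the exact permutation test).

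**Figure D4:**
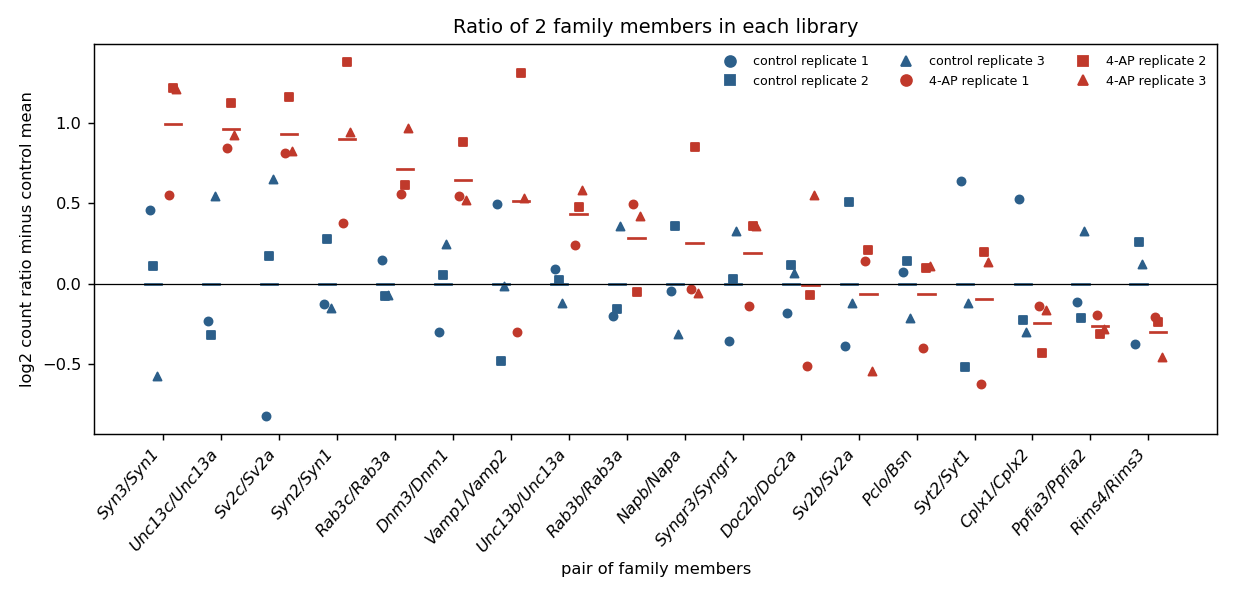
Log2 ratio of the counts of 2 family members in each library, with the control mean of each pair set to 0 and group means as lines. The 4-AP points of Syn2/Syn1, Rab3c/Rab3a and Dnm3/Dnm1 lie above all 3 control points, with differences of 0.90, 0.71 and 0.65, and those of Pclo/Bsn overlap.

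Other genes of the vesicle cycle were taken from a fixed list of 93 genes, of which 87 were tested. Of these 0 rose and 1 fell, and 54 lay below 0, with a median of -0.05. The gene that fell was Slc17a7, the vesicular glutamate transporter of cortical neurons, which is also 1 of the 3 glutamatergic markers that fell, at 658, 584 and 431 CPM in 4-AP and 938, 956 and 998 CPM in control libraries. The groups were far apart (log2 fold change -0.79, SE 0.15; edgeR adjusted p = 0.0142), but the call did not hold without 4-AP replicate 3, control replicate 2 or control replicate 3 (adjusted p = 0.150, 0.0532 and 0.0843 by edgeR's test). Slc17a6, its subcortical counterpart, was at 1.05 (SE 0.82), with 30.6, 29.3 and 54.1 CPM in 4-AP and 38.0, 5.19 and 10.7 CPM in control libraries. Slc17a6 and Syt9 passed as higher in the fit without control replicate 1. The vesicular GABA transporter gene Slc32a1 was at -0.02 (SE 0.22). In the list of other SNARE and fusion genes (15 tested, median -0.04), Vamp4, a SNARE of the trans-Golgi network and endosomes, had the smallest p of those above 0, at 0.39. In the other synaptotagmins (8 tested, median 0.002), Syt13 was at -0.20 and Syt17 at 0.45. Of the 24 tested other vesicle genes (median -0.04), Scamp1, at 0.32, had the smallest p of those above 0. Among 18 tested other active zone genes (median -0.15), the receptor phosphatase gene Ptprs was at -0.44 (adjusted p = 0.114 by edgeR's test) and Rims2, a large RIM, at 0.30. Among 22 other endocytosis genes (median -0.05), Synj2 was at -0.68 (adjusted p = 0.0636 by edgeR's test) and the clathrin light chain gene Clta at 0.23. Rims1 and Nrxn2 had 0 counts in every library, which is not read as absence of their RNA.

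Members with GC-rich transcripts had lower fold changes than members with GC-poor ones. Over the 48 members, log2 fold change and GC content of the transcripts had a Pearson r of -0.44 and a Spearman rho of -0.43, and over 11378 tested genes with annotation r was -0.13 and rho -0.15. These are correlations across genes that share the same 6 libraries, given as a description. Of 28 members with a GC content of at least 50%, 26 were below 0 (median -0.30), as were 56.3% of all such genes, and of 20 members under 50%, 13 were below 0 (median -0.11), as were 45.1% of all such genes. Pclo and Sh3gl2, at 46.6% and 48.1% GC, had the lowest fold changes of the members under 50%. With an offset for GC content and length the members' median was -0.20, 38 of 48 were below 0, and Pclo was still called (-0.65; edgeR adjusted p = 0.0195). Genomic span had r = 0.27 over members and 0.03 over all genes. The 24 members that span up to 60.5 kilobases had a median of -0.27, and the 24 longer ones, which include 7 of the 9 above 0, one of -0.16.

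**Figure D5:**
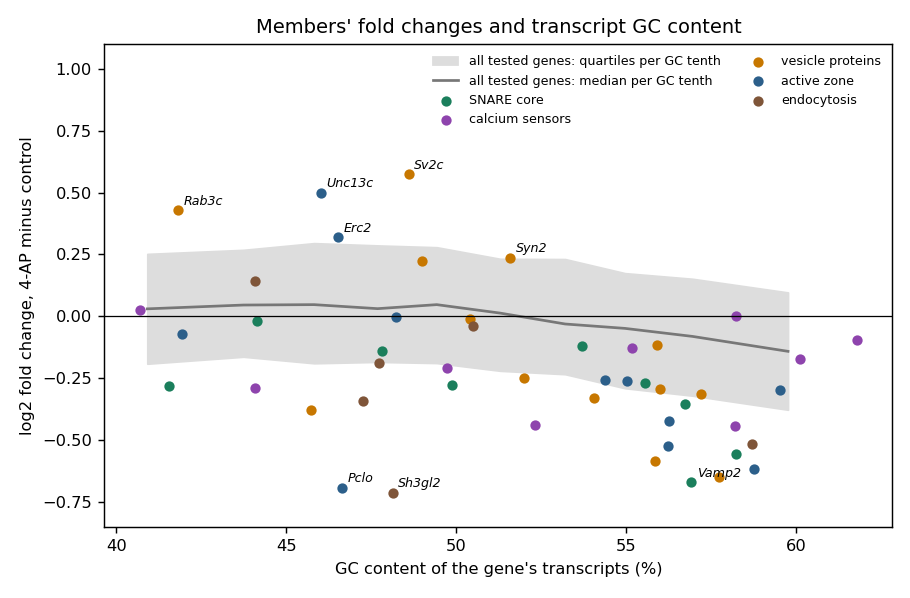
Log2 fold change (4-AP minus control) of the 48 members, coloured by role, against the GC content of their transcripts, with the median (line) and quartiles (band) of all tested genes in 10 bins of GC content of nearly equal size. Vamp2 is at -0.67 and Rab3c at 0.43, and Pclo and Sh3gl2 lie low at under 50% GC.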

How the data were processed

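RNase R-treated mouse brain RNA was sequenced in 6 libraries, 3 per group. The authors deposited whole-number read counts per gene; per the submitters' processing notes, the tools were STAR 2.5.3a and featureCounts, with the build mm10. Annotation release, strand setting and the handling of multi-mapping reads: not given in the sources used here. No label says that libraries came from separate animals, so p-values measure the spread between these libraries, which may be technical. All pairs of libraries differed by more than sampling noise (chi-square per degree of freedom at least 8.62, between 4-AP replicate 2 and control replicate 3).

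Of 55604 identifiers, 54723 matched GENCODE M21 (mm10), which gave symbols, coordinates, exon lengths and GC content. Promoter windows are from RefSeq (GRCm38.p6; 38 of 48 members matched). Counts were filtered with filterByExpr (minimum count 10, minimum total 15), scaled with the TMM method, and compared between groups by the robust quasi-likelihood test of edgeR 4.0.16 under R 4.3.3, without covariates. P-values were Benjamini-Hochberg adjusted over 11388 genes, with a threshold of 0.05. SE is the log2 fold change over the square root of F. CPM are counts per 1e+06 of the scaled library size, and 3 counts correspond to 0.778 to 2.19 CPM. DESeq2 1.42.0, limma 3.58.1 (voom) and other alternatives are in the closing section.

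The members, gene lists and motifs were chosen with earlier results of these data known. Values per library were given for called members and for up to 2 members per role and direction with the smallest p, and for others where a result turned on them, these last chosen after their values were seen. Of the other vesicle-cycle genes, called ones and 1 per list and direction were named, except 1 that is not reported here, and Slc17a6, Slc32a1, Syt9, Rims1 and Nrxn2 were added.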

Additional observations from a re-analysis of the deposited data

How the results depend on the processing

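Pclo was called lower, and no member higher, under every alternative that kept all 6 libraries. Of all tested genes, 96 were called (38 higher, 58 lower), 1 of them a member and 1 another presynaptic gene. The counts were 207, 7 and 4 with DESeq2, 328, 8 and 3 with no filter on low counts, and 290, 6 and 2 at an adjusted p under 0.1. Scaling by total counts only called 319 genes (26 higher, 293 lower), 11 members and 5 other presynaptic genes. It moved the median of all genes to -0.22 and that of the members to -0.48, which left the members 0.26 below. With Lars2 left out and total counts, chosen after seeing the data, 4 members were called. The fit without robust estimation called 55 genes. The members' median was -0.20 with the offset for GC content and length.

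No label says whether replicate numbers pair the samples, and with 3 libraries a group the correlations of deviations cannot decide it. Same-numbered libraries had correlations of -0.002, 0.11 and 0.02, and not every library correlated best with its own number. With the replicate block, 265 genes, 7 members and 3 other presynaptic genes were called.

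Leaving out 1 library gave 26 to 159 called genes, 0 to 1 members, 0 to 3 other presynaptic genes and a members' median of -0.29 to -0.19. The number of family pairs without overlap can only stay or rise when a library is left out, so it does not bear on stability (7 to 10 here). Without replicate 1 of both groups, also chosen after seeing the data, 2 other presynaptic genes were called, and 12 pairs did not overlap, a number that fewer libraries can only raise; the sign turned for Vamp1 (0.20), Syt2 (0.053), Syt4 (-0.11), Syt5 (-0.22), Rims3 (0.16) and Unc13b (0.059).

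Other turns of sign were of uncalled members. They were Syt5 at -0.0073 with a CPM filter, Rab3b at 0.0053 and Unc13b at 0.0060 with DESeq2, and Syt4 at -0.027 and Syt5 at -0.041 with Lars2 left out. The GC offset gave Syt4 -0.019, Doc2a 0.047 and Unc13b 0.045, and no filter gave Syt4 -0.0064 and Syt5 -0.030. Relative log expression scaling gave Rab3b 0.0083 and Unc13b 0.016, the replicate block Unc13b 0.000359, and upper-quartile scaling Napb 0.0054, Rab3b 0.017 and Unc13b 0.026. Total counts gave Syt4 -0.20, Syt5 -0.20, Syn3 -0.0017 and Dnm3 -0.059. Over fits without 1 library, Vamp1 ran from -0.54 to 0.069, Napb from -0.19 to 0.24, Syt4 from -0.071 to 0.26, Syt5 from -0.22 to 0.18, Doc2a from -0.27 to 0.013, Rab3b from -0.13 to 0.13, Rims3 from -0.41 to 0.047, Unc13b from -0.063 to 0.065, Ppfia2 from -0.23 to 0.10 and Amph from -0.12 to 0.050.

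With 3 libraries a group and as few as 22 counts for a member, small differences were not detectable, and the untreated controls, the lack of a stated brain region and the RNase R step limit what the values compare.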
